A study of Mus musculus with 135 samples.

Results

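Haematopoietic stem cells (HSCs) of a young mouse were divided by whether they expressed platelet genes, and all other genes were then compared between these cells within that mouse. Of 135 single-cell transcriptomes in the series, 61 came from young bone marrow, and the 52 of them that the study retained were used here. A cell was placed in the group with platelet genes when log2(CPM + 1), where CPM is the reads of a gene scaled to 1000000 counted reads of the cell, was above 2 (3 CPM) for at least 1 of *Clu*, *Selp*, *Sdpr*, *Itgb3*, *Fhl1* and *Tgm2*, and in the group without them otherwise. This gave 31 cells with platelet genes and 21 cells without. The cells were sorted from bone marrow of a C57BL/6 mouse of 2 to 3 months as Lin-Sca-1+c-Kit+ (LSK) CD150+CD48-, captured singly on a microfluidic chip and sequenced as polyadenylated RNA. Young and old donors (old, 20 to 25 months) both carried a Vwf-eGFP reporter, a bacterial artificial chromosome transgene that marks cells transcribing *Vwf*, so any *Vwf* sequence transcribed from the transgene cannot be told apart from the endogenous gene in the counts. The labels name no treatment. Per the study each age was 1 mouse, so cells are not replicates, none of the differences can be checked against replicates and p-values are not given. Each difference is a description of these 52 cells.

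HSCs maintain all blood lineages, and a subset of them transcribes genes of megakaryocytes, the bone marrow cells that shed platelets, before any commitment can be seen. Thrombopoietin acts both on megakaryocyte growth and on the maintenance of HSCs, so that several genes belong to the stem cell programme and to the platelet programme at once. Transcripts of lymphoid regulators are likewise found at low frequency in single HSCs and in the multipotent progenitors that follow them, which carry the receptor *Flt3*.

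Transcripts of the sorting markers were examined in both groups. *Kit* was expressed in 29 of 31 cells with platelet genes and in 20 of 21 cells without. *Ly6a*, which encodes Sca-1, was expressed in 17 and 11 cells, *Slamf1*, which encodes CD150, in 7 and 2 cells, and *Cd48* in 0 and 1 cell. Transcripts of surface proteins that were present at the sort were thus not detected in many cells, and a gene without reads in a cell cannot be called absent. Of the platelet genes named to mark the group, *Tgm2* was found in 18, *Itgb3* in 11, *Sdpr* in 8 and *Selp* in 5 of the 52 cells. Defining transcripts of other blood cells were near 0 for red cells, where 2 of 9 markers were in the table and the summed level was at most 1.02 CPM in any cell. For platelets themselves 6 of 7 markers were in the table, and their summed level had a median of 0.793 CPM (0 to 988) in cells with platelet genes and 2.45 CPM (0 to 1116) in cells without, with *Gp5* at 0 reads in all cells with platelet genes. Markers of granulocytes and macrophages (8 of 12 in the table) summed to a median of 135 CPM (0 to 990) and 70.9 CPM (0 to 1811), with *Elane* at 0 in both groups. The part of free RNA or adhering cells in the results was not tested.

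Depth and the number of genes expressed per cell overlapped between the groups, with both medians higher in cells with platelet genes. Between 273236 and 5688706 reads were counted per cell with platelet genes, with a median of 2922640. In cells without, the range was 816122 to 5018332, with a median of 2686914. The shallowest cells, with 273236 and 281907 reads, were both with platelet genes, and in them 1 read exceeds the limit of 3 CPM. The cells with platelet genes expressed a lowest of 3477, a median of 4119 and a highest of 5600 genes, and the cells without expressed 2973, 3966 and 5344. With all cells reduced at random to 250000 reads, the medians were 4364 and 4190. At that depth 1 read exceeds the limit, so every gene with a read was counted as expressed. With the rule applied to the reduced counts 36 cells were with platelet genes, 5 of them from the group without. In all, 7 of the 21 cells without platelet genes and 1 of the 31 with lay outside the range of 3477 to 5344 genes that both groups share. Medians were 3966, 4044 and 4427.5 genes in cells with 0, 1 and at least 2 of the 6 genes. The part of this difference in the results was not tested further, and the main lists are given below also within the shared range of genes expressed, a comparison added after the data were seen. In addition, 4 cells stood apart in sex-linked transcripts, 1 of them with and 3 without platelet genes. Of these, 2 expressed a Y-linked gene and 2 did not express *Xist*. Whether they came from another animal than the other young cells was not tested. The differences are therefore also given without these 4 cells where they matter.

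**Figure D1:**
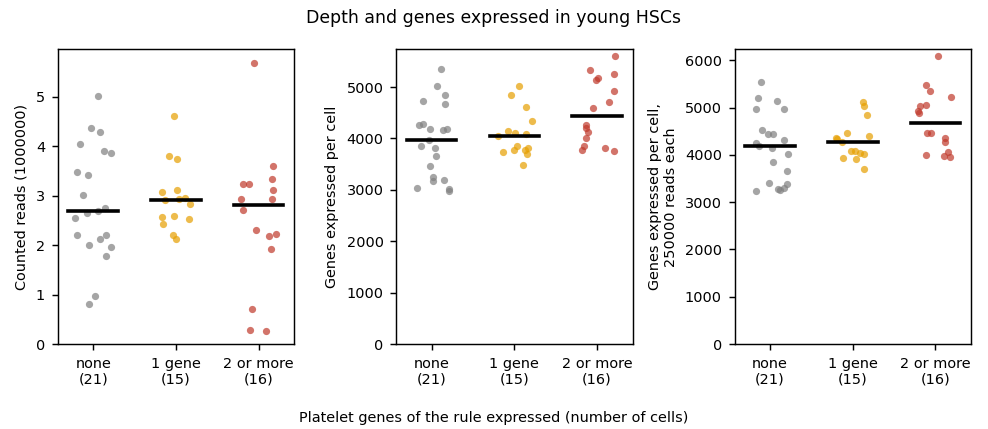
Counted reads (in units of 1000000), genes expressed per cell, and genes expressed after reduction to 250000 reads, for young HSCs that expressed none (21 cells), 1 (15 cells) or at least 2 (16 cells) of the 6 platelet genes. Points are cells and lines medians, and the median number of genes expressed was 3966, 4044 and 4427.5 from left to right while counted reads overlapped.

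The 6 genes that the cells were selected on are those that the study linked to platelet differentiation among the genes raised in old HSCs. Their values are given as a description only. In all, 31 of 52 young cells (59.6%, 95% exact Clopper-Pearson interval 45.1 to 73) expressed at least 1 of them. Reads carry no molecular identifiers, so this and all other intervals cover counting error only. None of the 6 genes was expressed in 21 cells, 1 gene in 15, 2 genes in 11, 3 genes in 3 and 4 genes in 2 cells. No young cell expressed 5 or 6 of them. In the 62 retained cells of the old mouse the corresponding numbers from 0 to 6 genes were 1, 1, 11, 12, 17, 16 and 4 cells, so that 61 of 62 old cells (98.4%, 91.3 to 99.96) were on the side with platelet genes and the same contrast could not be made within the old mouse.

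*Tgm2*, which encodes the protein-crosslinking enzyme transglutaminase 2 (chr2:158116405-158146392, GRCm38), contributed most cells. It was expressed in 18 of 52 cells, with a lowest of 3.20, a median of 5.34 and a highest of 9.41 on the log2(CPM + 1) scale, and it was the sole gene of the 6 in 7 cells. The cell just outside the limit had a level of 1.99. *Itgb3*, the beta-3 subunit that forms the platelet fibrinogen receptor with *Itga2b* and the vitronectin receptor with *Itgav* (chr11:104608000-104670476), was expressed in 11 cells at 2.19 to 9.53 (median 3.72), and 27 further cells had reads at or below the limit, the highest at 1.71. *Itgb3* was thus the gene for which the limit mattered most. *Fhl1*, a LIM domain protein (chrX:56731209-56793346), was expressed in 10 cells at 2.36 to 7.75 (median 4.14, just outside 1.08), in 4 of them alone.

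The other 3 genes were less frequent. *Sdpr*, now named *Cavin2*, a coat protein of caveolae (chr1:51289126-51302960), was expressed in 8 cells at 2.23 to 9.68 (median 5.85, just outside 0.67). *Selp*, the adhesion receptor P-selectin of platelet alpha granules (chr1:164115264-164150026), was expressed in 5 cells at 3.45 to 9.13 (median 4.40, just outside 1.93) and never alone. *Clu*, the chaperone clusterin (chr14:65968483-65981548), was expressed in 2 cells at 5.48 and 7.24, and no other cell had a read of it. In each gene a single cell held between 34.2% (*Tgm2*) and 83.9% (*Clu*) of all reads of the gene in the 52 cells. Reads of these genes were therefore concentrated in few cells.

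Joint expression was most frequent for *Itgb3* and *Tgm2*, which shared 7 cells, 63.6% of those with *Itgb3* and 38.9% of those with *Tgm2*. *Sdpr* and *Tgm2* shared 4 cells, as did *Fhl1* and *Tgm2*, and *Selp* shared 3 of its 5 cells with *Itgb3* and 3 with *Fhl1*. The 2 cells with 4 genes both expressed *Selp*, *Itgb3*, *Fhl1* and *Tgm2*. The levels were 3.92, 2.19, 4.23 and 5.94 in one cell and 4.40, 5.62, 7.18 and 7.00 in the other. The first of these cells had 281907 counted reads, so few that 1 read of a gene exceeds the limit, and its *Itgb3* level lay just above it. Another combination, *Clu* with *Selp* and *Sdpr* at 7.24, 7.01 and 4.40, was found in a single cell that lacked the other 3 genes at the limit. In the old mouse the 6 genes were expressed in 22 (*Clu*), 42 (*Selp*), 51 (*Sdpr*), 40 (*Itgb3*), 34 (*Fhl1*) and 42 (*Tgm2*) of 62 cells.

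**Figure D2:**
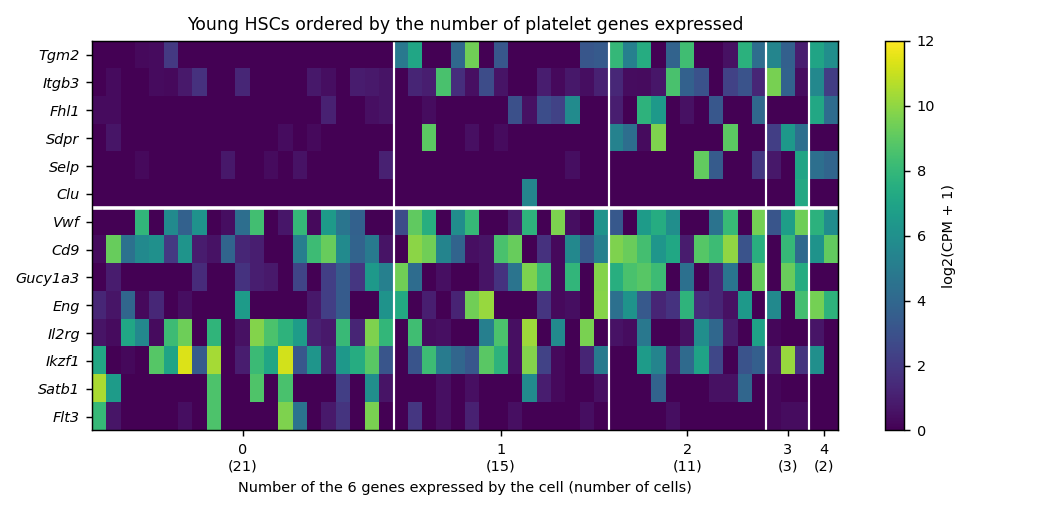
Levels (log2(CPM + 1), colour) of the 6 genes that defined the groups (above the white line) and of 8 other genes (below it) in the 52 young HSCs, one column per cell, ordered by the number of the 6 genes expressed and then by the genes expressed per cell. *Tgm2* filled 18 columns and *Clu* 2, and the 5 columns with *Flt3* above the limit all lie among the 21 cells with none of the 6 genes.

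The promoters of 2 genes of the rule that were found in few cells, *Sdpr* and *Selp*, and of 2 genes outside the rule described below, *Cd9* with a higher and *Flt3* with a lower mean in cells with platelet genes, are printed to show the sequence from which these transcripts start. They span 250 bases before to 50 after the annotated start in RefSeq (GRCm38.p6) and are written on the strand of the gene. Capitals mark matches to the ETS motif (CAGGAA or CCGGAA). The GATA motif (AGATAA or TGATAA) was searched as well, both on either strand. *Sdpr* lies at chr1:51288876-51289175 (plus strand), *Selp* at chr1:164115014-164115313 (plus), *Cd9* at chr6:125494711-125495010 (minus) and *Flt3* at chr5:147400440-147400739 (minus).
Sdpr: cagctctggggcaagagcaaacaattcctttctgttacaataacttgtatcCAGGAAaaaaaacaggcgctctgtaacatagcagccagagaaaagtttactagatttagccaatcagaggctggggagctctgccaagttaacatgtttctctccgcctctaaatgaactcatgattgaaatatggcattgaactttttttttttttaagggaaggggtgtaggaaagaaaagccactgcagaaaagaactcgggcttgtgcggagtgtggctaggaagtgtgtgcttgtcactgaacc
Selp: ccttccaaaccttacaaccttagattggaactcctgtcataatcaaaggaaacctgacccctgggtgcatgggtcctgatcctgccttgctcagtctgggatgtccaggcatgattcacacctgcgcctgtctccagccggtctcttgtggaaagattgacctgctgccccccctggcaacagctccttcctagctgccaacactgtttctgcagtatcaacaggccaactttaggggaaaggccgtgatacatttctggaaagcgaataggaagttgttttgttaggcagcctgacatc
Cd9: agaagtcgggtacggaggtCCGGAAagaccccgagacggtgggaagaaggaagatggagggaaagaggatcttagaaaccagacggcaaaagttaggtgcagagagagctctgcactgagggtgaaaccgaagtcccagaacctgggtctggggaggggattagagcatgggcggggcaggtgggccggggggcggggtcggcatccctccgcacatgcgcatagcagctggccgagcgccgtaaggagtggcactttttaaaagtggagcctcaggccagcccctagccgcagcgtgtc
Flt3: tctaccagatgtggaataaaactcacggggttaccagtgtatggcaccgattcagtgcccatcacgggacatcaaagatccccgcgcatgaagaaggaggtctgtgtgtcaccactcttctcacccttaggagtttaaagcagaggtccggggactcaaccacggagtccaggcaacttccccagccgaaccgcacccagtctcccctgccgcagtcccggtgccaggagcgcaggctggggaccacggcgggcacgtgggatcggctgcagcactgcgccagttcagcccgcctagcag
An ETS match was present in *Sdpr*, at -199 from the start, and in *Cd9*, at -231, and the motif was found in 41.4% of 32851 promoters of this length. No GATA match was present in these 4 windows, against 18.6% of all promoters. A match is only a run of letters, and no binding was measured here.

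Across all other genes, the groups were compared by the difference in mean log2(CPM + 1), with minus without, over the 9227 genes that at least 10% of the 52 cells expressed. A difference of at least 1 on this scale was counted as past the limit. A gene expressed mainly in either group can pass the expression filter through that group alone. The place of such a gene among those past the limit is then in part set by the filter. In the cells with platelet genes 1138 genes (12.3%) were higher and 490 (5.31%) lower past the limit, and the median difference over all 9227 genes was 0.17. These shares are the background for every list below in this main comparison, and each alternative has its own. Of all genes 9.90% were higher and 7.64% lower with TMMwsp scaling, and 8.61% and 12.5% within the shared range. The shares were 11.8% and 6.88% without the 4 cells that stood apart and 23.5% and 9.89% among cells without mitotic entry genes. With the rule at 10 CPM they were 9.85% and 7.5%, and where 1 read was enough for it 26.5% and 17.9%. In the ratio of summed counts they were 27.7% and 18.5%. In the main comparison higher genes made up 69.9% of those past the limit. With TMMwsp scaling of edgeR, which moved the median difference to 0.02, they made up 56.4% (903 higher and 697 lower). Within the shared range of genes expressed they made up 40.8% (811 higher and 1177 lower, with a median of -0.04). The excess of higher over lower genes therefore turned when the cells were restricted in this way.

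Platelet genes outside the rule were higher more often than lower. Of 37 megakaryocyte and platelet genes listed, 33 were in the table and 19 passed the filter of 10% of cells expressing. Among these 19, 7 were higher past the limit (36.8%, against 12.3% of all genes) and 0 were lower (against 5.31%), with a median difference of 0.60 over the 19 and 0.22 over the 33. Among them were *Gucy1a3*, *Cd9*, *Vwf*, *Tbxas1*, *Rab27b* and *F2r*, the last 2 of these beyond the 5 largest and named after their values were seen. With TMMwsp scaling 5 members were higher and 0 lower, and 6 were higher and 2 lower both within the shared range of genes expressed and without the 4 cells that stood apart. The counts were 7 and 3 with the rule at 10 CPM. In the ratio of summed counts they were 9 and 2 of 19, against 27.7% and 18.5% of all genes in that setting.

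*Vwf* encodes von Willebrand factor, the adhesive protein of platelet alpha granules and the gene of the reporter that these mice carry (chr6:125552948-125686679). Its level ranged from 0 to 9.65 with a median of 5.85 in cells with platelet genes and from 0 to 8.35 with a median of 0.73 in cells without. The means were 4.40 ± 3.63 and 2.88 ± 3.19, a difference of 1.51, and 20 of 31 (64.5%, 45.4 to 80.8) against 10 of 21 cells (47.6%, 25.7 to 70.2) expressed it. These shares overlap widely in their intervals. Means of 2.88, 3.88 and 4.89 were found in cells with 0, 1 and at least 2 of the 6 genes. Of the 8 cells with *Sdpr*, 7 expressed *Vwf*, but of the 11 with *Itgb3* only 6 did. The difference was 1.14 within the shared range and was 0.57 when 1 read sufficed to place a cell in the group with platelet genes, which left 4 cells without. Expression of *Vwf* and of the 6 genes thus overlapped in part, with 10 of 21 cells without any of the 6 still expressing *Vwf*.

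*Cd9*, a tetraspanin of the platelet surface (chr6:125460266-125494760), had levels of 0 to 9.99 (median 6.16) with and 0 to 9.22 (median 3.89) without platelet genes, a difference of 1.72. It was expressed in 23 of 31 and 12 of 21 cells. Cells with 1 gene of the 6 (mean 4.24) lay close to those with none (3.78), and cells with at least 2 genes were higher at 6.68, with 14 of 16 expressing. *Gucy1a3*, a subunit of the soluble guanylate cyclase that relays nitric oxide in platelets (chr3:82092427-82145946), showed the largest difference of the list at 2.75, with 16 of 31 against 5 of 21 cells expressing it and means of 4.08 ± 4.0 and 1.32 ± 1.83. For this gene the cells with 1 and with at least 2 genes were close to each other, at 3.79 and 4.34. *Tbxas1*, the thromboxane synthase, differed by 1.18 and was expressed in all 16 cells with at least 2 of the 6 genes. *Rab27b*, a small GTPase of granule release, differed by 1.06 and *F2r*, the thrombin receptor PAR1, by 1.02, *F2r* in 6 against 1 cell. The *Tbxas1* difference was 0.92 with TMMwsp scaling.

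**Figure D3:**
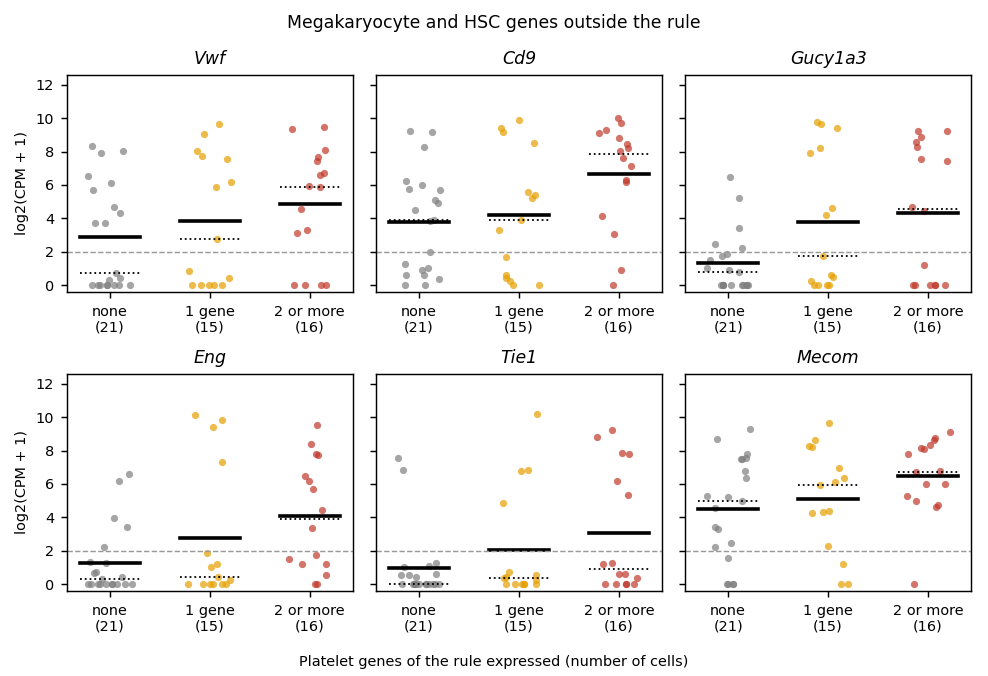
Levels of 6 genes outside the rule in young HSCs with none, 1 or at least 2 of the 6 platelet genes. The y axis is log2(CPM + 1), points are cells, solid lines means, dotted lines medians, and the dashed grey line is the limit of 2 for an expressing cell. Every gene overlapped between the classes, and the means were highest in cells with at least 2 genes, 6.68 for *Cd9* and 4.89 for *Vwf*.

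Other platelet genes and the integrin partners of *Itgb3* lay within the limit. *Pf4*, a chemokine of platelet granules that missed the filter, was expressed in 3 of 31 and 2 of 21 cells, with means of 0.56 and 0.55. *Gp9*, a subunit of the receptor for von Willebrand factor, was expressed in 7 cells of each group and differed by -0.79. *Itga2b*, the alpha-IIb subunit that pairs with *Itgb3* and marks megakaryocytes early, was expressed in 10 of 31 and 3 of 21 cells (means of 2.03 ± 3.05 and 1.25 ± 2.86), and its difference of 0.79 was 0.09 within the shared range of genes expressed. *Itgav*, the other partner of *Itgb3*, differed by 0.75 (10 and 3 cells). Neither integrin subunit was therefore past the limit.

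Among 22 genes listed as partners or relatives of the 6, 12 of 18 in the table passed the expression filter. Past the limit 3 were higher (25%, against 12.3% of all genes) and 2 lower (16.7%, against 5.31%). *Apoe*, a lipid-carrying apolipoprotein that shares receptors with clusterin (chr7:19696244-19701310), was among the 3 highest genes of all. Its levels had a median of 7.79 (0 to 10.71) with and 0.73 (0 to 8.96) without platelet genes, a difference of 3.17, and 24 of 31 against 10 of 21 cells expressed it. *Lrp8*, a receptor for *Apoe*, differed by 1.07, and a single cell held 57.7% of its reads. *Ptrf*, now named *Cavin1*, which builds the caveolar coat together with the product of *Sdpr* (chr11:100956736-100970617), had means of 6.09 ± 3.52 and 4.39 ± 2.69, a difference of 1.69, in 25 and 15 cells. The lower members were *Selplg*, the ligand of P-selectin, at -1.12 (16 and 13 cells expressing) and the integrin subunit *Itgb1* at -1.04. Without the single cell with most reads of the gene these were -0.84 and -0.78, and the *Lrp8* difference was 0.87, so all 3 then lay within the limit. *Apoe* and *Ptrf* remained past the limit in all 16 alternatives.

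Of 21 transcription factors of the megakaryocyte lineage, 18 passed the filter, 2 were higher and 1 lower past the limit, shares of 11.1% and 5.56% that lie near the background. *Gfi1b*, a repressor required for megakaryocytes and red cells, had means of 1.15, 0.95 and 4.16 in cells with 0, 1 and at least 2 of the 6 genes, so that its difference of 1.45 came from the last class, where 9 of 16 cells expressed it. *Srf*, a regulator of actin genes, was lower at -1.16, and differed by -0.84 without the cell that held 43.9% of its reads. *Gata1*, the leading factor of the lineage, was expressed in 1 cell of each group, and its cofactor *Zfpm1*, or FOG-1, in 10 and 6 cells with a difference of -0.46. *Runx1*, *Fli1* and *Nfe2* also stayed within the limit.

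Genes of the thrombopoietin pathway did not share a direction. Of 22 genes, 19 passed the filter. Past the limit 2 were higher (10.5%, against 12.3% of all genes), *Cish* among them, and 1, *Socs2*, was lower (5.26%, against 5.31%). The median difference was -0.08 over the 21 in the table. *Cish*, a STAT5-induced feedback inhibitor, differed by 1.22, with 57.6% of its reads in a single cell, and without that cell by 0.92. *Socs2*, another inhibitor of the same family, differed by -1.06, and by -0.71 without the cell that held most of its reads. *Stat5a* differed by -0.99. *Jak2*, the kinase that starts the signal, was within the limit at -0.19.

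Genes of HSC identity were again higher more often than lower. All 30 were in the table, 29 passed the filter, and 8 of these were higher (27.6%, against 12.3% of all genes) and 0 lower, with a median difference of 0.36 over the list. Among them were *Eng*, *Tie1*, *Mllt3*, *Pdzk1ip1*, *Mecom* and *Ctnnal1*, of which the last 3 were named after their values were seen. Within the shared range of genes expressed the counts were again 8 and 0, with TMMwsp scaling 7 and 1, and without the 4 cells that stood apart 10 and 1. They were 7 and 2 with the rule at 10 CPM or without *Tgm2*. For at least 2 of the 6 genes against none they were 12 and 3 of 30, against 17.9% and 6.44% of all genes. In the ratio of summed counts they were 4 and 3 of 29, against 27.7% and 18.5% of all genes, so the list was not above background there. *Eng*, the TGF-beta coreceptor endoglin (chr2:32646595-32682669), had means of 3.46 ± 3.69 and 1.30 ± 2.05, a difference of 2.16, and was expressed in 13 of 31 and 5 of 21 cells. *Tie1*, a receptor tyrosine kinase (chr4:118471191-118489849), was expressed in 10 and 2 cells and differed by 1.64. *Mllt3*, a reader of acylated histones that maintains HSCs, differed by 1.61, *Pdzk1ip1* by 1.52 and *Mecom*, a transcription factor required for HSC self-renewal, by 1.31. Not every gene of the list followed, since *Meis1* was expressed in every cell of both groups and differed by -0.16, *Procr* by 0.27, *Fgd5* by 0.11 and *Hlf* by -0.97.

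Lymphoid genes had lower and no higher members past the limit on the scale of mean log2 levels. Of 37 genes, 25 were in the table and 13 passed the filter. Among the 13, 0 were higher and 4 lower (30.8%, against 5.31% of all genes) in cells with platelet genes, with a median difference of -0.11 over the 25. The counts were 0 and 5 with TMMwsp scaling, 0 and 4 within the shared range of genes expressed and without the 4 cells that stood apart, 1 and 3 among cells that expressed no mitotic entry gene, and 3 and 5 where 1 read was enough for the rule. In the ratio of summed counts 4 of 13 members were higher and 3 lower, against 27.7% and 18.5% of all genes in that setting. The 4 genes were *Il2rg*, *Satb1*, *Ikzf1* and *Lax1*. Of these, *Satb1* and *Lax1* passed the filter only through the cells without platelet genes, so their place among the lower members is in part set by it. With no expression filter 0 were higher and 5 lower of 23, against 8.24% and 3.67% of all genes.

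*Il2rg* encodes the common gamma chain of receptors for several lymphoid interleukins (chrX:101264385-101268255). Its level had a median of 0.48 (0 to 10.22) in cells with platelet genes and of 6.61 (0 to 9.76) in cells without. The means were 2.39 ± 3.40 and 4.84 ± 3.92, a difference of -2.45, and 10 of 31 (32.3%, 16.7 to 51.4) against 12 of 21 cells (57.1%, 34 to 78.2) expressed it. In the order of 0, 1 and at least 2 of the 6 genes the means were 4.84, 3.27 and 1.57, with 12 of 21, 6 of 15 and 4 of 16 cells expressing. None of the 8 cells with *Sdpr* expressed *Il2rg*. The difference was -3.09 without the 4 cells that stood apart and -2.76 within the shared range. With all 61 young cells it was -1.70, and in the ratio of summed counts it was -0.88, within the limit. In the old mouse, where nearly all cells had platelet genes, 42 of 62 cells expressed *Il2rg*, so that *Il2rg* and platelet genes were found in the same cells there.

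*Ikzf1*, the zinc finger factor Ikaros that lymphoid development requires (chr11:11684962-11772930), had a median of 3.14 (0 to 10.16) with and 6.38 (0 to 11.38) without platelet genes and a difference of -1.76, with 19 of 31 and 15 of 21 cells expressing. Its means of 5.35, 3.96 and 3.25 followed the number of genes of the rule. The *Ikzf1* difference was past the limit in 15 of 16 alternatives, and was -0.95, within it, with all 61 young cells. *Satb1*, a chromatin organizer of lymphoid cells (chr17:51736187-51833290), was expressed in 3 of 31 and 7 of 21 cells and differed by -1.90, and 62.1% of its reads lay in 1 cell without platelet genes, without which the difference was -1.50. *Lax1*, a lymphocyte signalling adaptor, was expressed in 2 and 6 cells and differed by -1.19. Its difference was -0.89 without the cell that held most of its reads. The remaining 9 members past the filter, *Bcl11a* (-0.36), *Gata3* (-0.41) and *Notch1* (-0.02) among them, lay within the limit.

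*Flt3*, the cytokine receptor of lymphoid-primed multipotent progenitors (chr5:147330741-147400489), was expressed in 9.62% of the cells and missed the filter, and it is described because of its role, after its values were seen. No cell with platelet genes expressed it (0 of 31, which allows a share of up to 9.68%), against 5 of 21 cells without (23.8%, 8.22 to 47.2). In those 5 cells the level was 4.55, 8.04, 8.63, 9.60 and 9.66, whereas the highest level in the cells with platelet genes was 1.90. Mean levels were 0.19 ± 0.40 and 2.10 ± 3.58, a difference of -1.92. The separation is one of few cells, and the 2 shares have overlapping intervals. Of the 5 cells, 1 did not express *Xist*, and without the 4 cells that stood apart the difference was -1.83. *Satb1* was expressed in 4 of these 5 cells but in 3 of the other 16 without platelet genes, and *Ikzf1* in all 5 and in 10 of 16. In the old mouse 2 of 62 cells expressed *Flt3*.

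**Figure D4:**
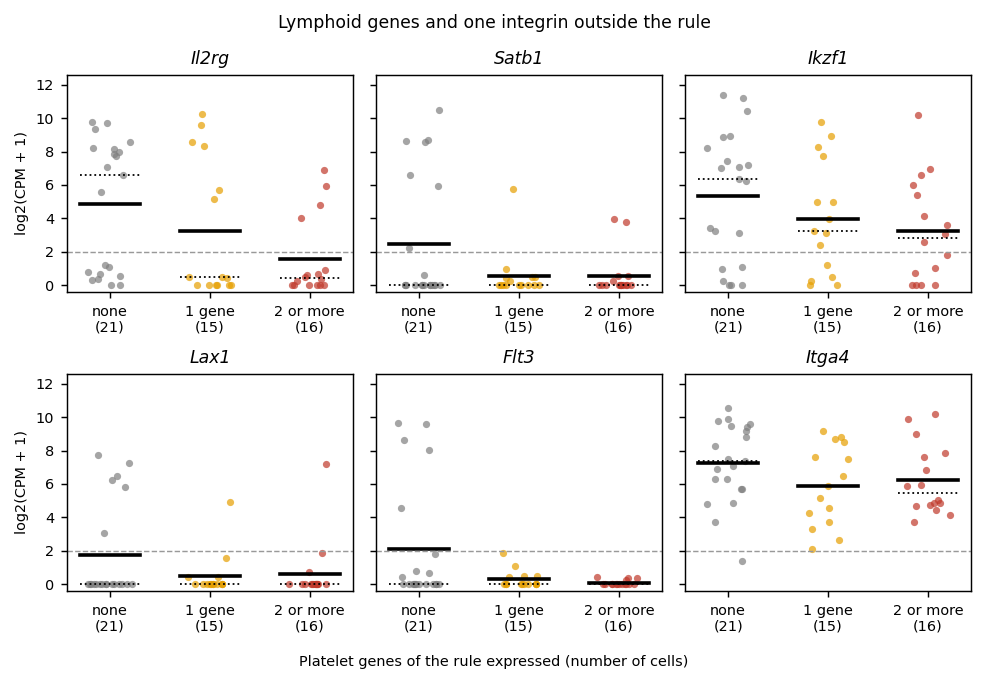
Levels of 5 lymphoid genes and of the integrin subunit *Itga4* in young HSCs with none, 1 or at least 2 of the 6 platelet genes. The y axis is log2(CPM + 1), points are cells, solid lines means, dotted lines medians, and the dashed grey line is the limit of 2 for an expressing cell. The *Il2rg* means were 4.84, 3.27 and 1.57 from left to right, and *Flt3* was above the limit in 5 cells of the first class alone.

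Of 32 erythroid genes 11 passed the filter, and 3 of these were higher (27.3%, against 12.3% of all genes) and 1 lower (9.09%, against 5.31%). With the rule at 10 CPM 0 were higher and 1 lower. *Car2*, a carbonic anhydrase that was expressed in every cell, had means of 11.54 ± 1.08 with and 10.40 ± 1.95 without platelet genes, a difference of 1.14 that was 0.81 with TMMwsp scaling. *Blvrb*, a biliverdin reductase, differed by 1.52 and *Hemgn*, a nuclear protein of red cell precursors, by 1.16, the latter by 0.89 without the cell that held 55.9% of its reads. *Fech*, the last enzyme of haem synthesis, differed by -1.38 but by 0.51 in the ratio of summed counts. Of 35 granulocyte and macrophage genes 14 passed the filter, and 2 of these were higher (14.3%, against 12.3% of all genes) and 0 lower. The higher genes were *Gstm1*, a glutathione transferase, at 2.05 and *Prtn3*, a granule protease, at 1.16. *Prtn3* differed by 0.81 without the 4 cells that stood apart and by -0.28 in the ratio of summed counts.

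Cell cycle genes differed in direction with the cells compared. Of 43 S phase genes that passed the filter 6 were higher (14%) and 1 lower (2.33%). Of 51 G2/M genes 8 were higher (15.7%) and 1 lower (1.96%). The shares of higher genes lie near the 12.3% of all genes, and 5.31% of all genes were lower. Median differences over the lists were 0.32 and 0.34. Within the shared range of genes expressed the counts turned to 1 higher and 3 lower of 43 and to 1 higher and 8 lower of 51. Of all genes 8.61% were higher and 12.5% lower there, so the balance over all genes turned as well. *Cdk1*, the kinase of mitotic entry, was expressed in 16 of 31 and 5 of 21 cells and differed by 1.49, and by 0.84 within that range. *Gins2*, a subunit of the replicative helicase, was expressed in 10 and 1 cells, with a difference of 2.07, and *Pcna*, the sliding clamp of DNA polymerase, differed by 1.82 but by 0.46 within that range. Any of the mitotic entry genes *Cdk1*, *Ccnb1*, *Ccna2* and *Cdc25c* was expressed in 18 of 31 (58.1%, 39.1 to 75.5) and 9 of 21 cells (42.9%, 21.8 to 66). Of the cells that expressed none of the 4, 13 were with and 12 without platelet genes. Between these *Cd9* differed by 2.68, *Il2rg* by -2.45 and *Flt3* by -1.30. S phase genes differed between them too, with 13 higher and 1 lower of 32 past the filter, against 23.5% and 9.89% of all genes. *Pcna* differed there by 3.15, so these cells were not matched in cell cycle genes. The part of the cell cycle in the differences was not tested.

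Adhesion and niche receptors divided evenly, with 4 members higher and 4 lower of 22 past the filter. These shares were 18.2% each, against 12.3% higher and 5.31% lower of all genes. *Alcam*, an immunoglobulin-type adhesion molecule, differed by 2.06 and *Cd63*, a tetraspanin of granule membranes, by 1.42, and *Cd63* was expressed in all 16 cells with at least 2 of the 6 genes. *Itga4*, the integrin subunit that binds VCAM-1 in the marrow, was lower by -1.19, with means of 6.07 ± 2.21 and 7.26 ± 2.35, and was expressed in 31 of 31 and 20 of 21 cells. With *Itgb1*, its partner subunit, at -1.04, both chains of this receptor were lower in the main comparison. Among cells without mitotic entry genes *Itgb1* was not lower (0.13) and *Itga4* lay within the limit (-0.89). Of 16 alternatives *Itga4* was past the limit in 12 and *Itgb1* in 9.

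Genes that the study found raised in old HSCs were chosen on these samples and are no independent evidence. Of 51 such genes 45 passed the filter. In young cells with platelet genes 7 were higher (15.6%, against 12.3% of all genes) and 4 lower (8.89%, against 5.31%). With TMMwsp scaling 4 were higher and 6 lower of 44, against 9.90% and 7.64% of all genes. Within the shared range of genes expressed 6 were higher and 7 lower of 45, against 8.61% and 12.5%. *Clca1*, a symbol that has stood for more than 1 mouse gene of the chloride channel accessory family, so that the gene counted is uncertain, was expressed in 8 of 31 and 0 of 21 cells (up to 14.3% allowed), at most at 1.15 in the latter, with a difference of 1.91, and in 46 of 62 old cells. *Clca1* passed the filter only through the cells with platelet genes, and with all 61 young cells its difference was 0.88, within the limit. *Sat1*, an enzyme of polyamine breakdown, differed by 2.02, and *Gstm1* is given above. *Il2rg*, which belongs to this list as well, lay on the other side at -2.45.

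**Figure D5:**
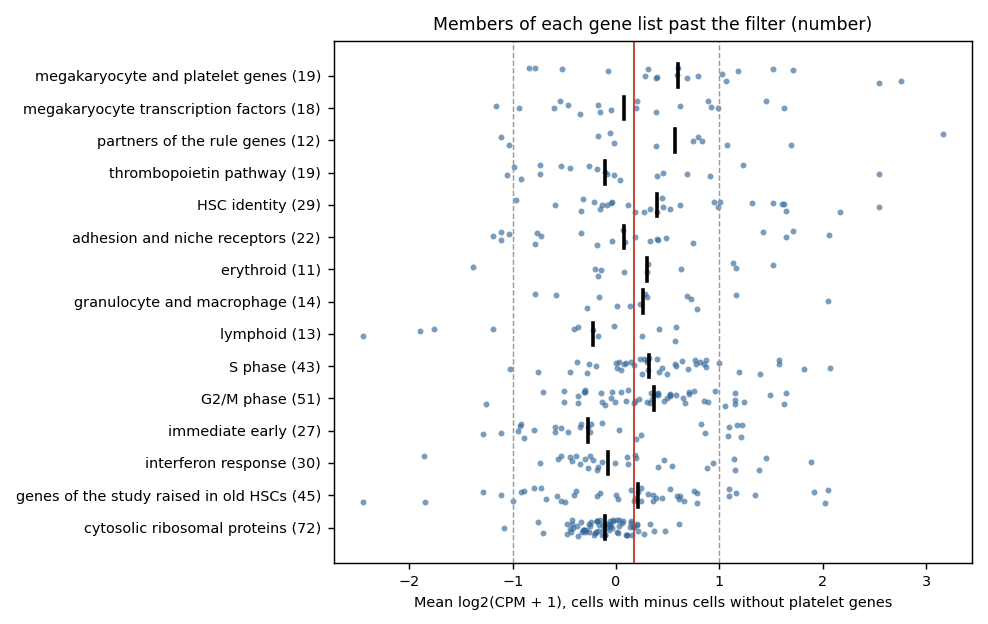
Difference of mean log2(CPM + 1), cells with minus cells without platelet genes, for the members of 15 gene lists past the filter of 10% of cells expressing (number in parentheses). Points are genes, black bars list medians, dashed lines the limits of -1 and 1, and the red line the median of all 9227 genes (0.17), and the lists of megakaryocyte and platelet genes and of HSC identity have no member beyond -1 and the lymphoid list none beyond 1.

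Immediate early, interferon response and ribosomal protein genes showed no common direction or small differences. Of 27 immediate early genes past the filter 5 were higher (18.5%) and 2 lower (7.41%), with a median of -0.14. With TMMwsp scaling 1 was higher and 7 lower. Of 30 interferon response genes 5 were higher (16.7%) and 1, *Irf1*, was lower (3.33%). Of all genes 12.3% were higher and 5.31% lower. Of 72 ribosomal protein genes 71 lay within the limit, with a median difference of -0.11.

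The genes with the largest differences belonged to none of the lists apart from *Apoe*. *Ostc*, a subunit of the oligosaccharyltransferase of the endoplasmic reticulum (chr3:130695917-130709444), was the highest, with a median of 5.53 (0 to 9.48) in cells with platelet genes and 0 (0 to 7.38) in cells without, a difference of 3.62, and 22 of 31 against 3 of 21 cells expressing. Its difference was 3.18 within the shared range of genes expressed. *Sar1a*, a GTPase that forms transport vesicles at the same membrane, was expressed in 18 and 2 cells and differed by 2.96. *Tgfbr3*, the TGF-beta coreceptor betaglycan, was expressed in 22 and 6 cells, with a difference of 2.93 that was 3.13 within the shared range. *Snhg4* (3.21), *Kars* (3.08), *Adam22* (3.05), *Prcp* (3.04), *Nemf* (3.03) and *Cyb5a* (2.91) completed the 10 highest with *Apoe*.

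The 10 lowest genes were *Lancl1*, *Sdf2*, *Zzz3*, *Rab14*, *Diap1*, *Pdhb*, *Llph*, *Tceanc2*, *Xiap* and *Dag1*, with differences from -3.46 to -2.66. *Lancl1*, a glutathione-binding protein, was expressed in 4 of 31 and 14 of 21 cells, with medians of 0 and 4.48. *Sdf2*, a protein of the endoplasmic reticulum, was expressed in 7 and 14 cells, with medians of 0.35 and 5.32 and a difference of -3.39. *Rab14*, a GTPase of endosomes, was expressed in 21 and 19 cells at medians of 4.93 and 8.60. *Dag1*, the laminin receptor dystroglycan, was expressed in 7 and 11 cells, with a difference of -2.66. Whether these differences recur in other mice was not tested.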

How the data were processed

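Single LSK CD150+CD48- HSCs of 1 young and 1 old Vwf-eGFP mouse were captured on a C1 chip, whose capture sites the study inspected by microscope, so no doublet caller was run. Reads of 51 bp were aligned to mm10 by the authors with TopHat2 2.0.10, and raw counts on RefSeq genes were deposited for each cell. The count table holds 15181 names, of which 15091 matched RefSeq and gave positions on GRCm38. Counting is not stated to use strand, and overlapping genes and near-identical copies may share reads.

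From the counts, CPM over each cell's total and log2(CPM + 1) were computed with Python 3.11.15, pandas 2.3.3, numpy 2.4.6 and scipy 1.17.1. The 52 young cells that the study retained were divided at a level of 2, and 9 young cells were left out. The 9227 genes that 10% or more of these cells expressed, without the 6 of the rule, were compared by the difference of group means, with a limit of 1. With 1 mouse no test was made. Between 273236 and 5688706 reads were counted per cell. Exact 95% Clopper-Pearson intervals are given for shares, and 0 cells allow up to 3 of the number examined. The members, the gene lists and the rule for named genes were chosen with earlier results of these data known. Named were the 6 genes, the 10 largest differences in each direction whose ratio of summed counts had the same sign, at most 5 members of each list with the largest differences, and *Vwf*, *Itga2b*, *Itgav*, *Selplg*, *Gata1*, *Zfpm1*, *Pf4*, *Kit*, *Slamf1*, *Ly6a* and *Cd48*; any other gene named was chosen after its values were seen, and some results are not reported here. Lists covered, beside the lineages, markers of B cells, T and NK cells, and endothelial and stromal cells. Alternatives were other sets of cells, a pseudocount of 0.1 CPM, the ratio of summed counts, TMMwsp factors (edgeR 4.0.16), poscounts factors (DESeq2 1.42.0), reduction to 250000 reads, other limits of the rule and no expression filter. The steps were checked on simulated counts. Figures were drawn with matplotlib 3.10.9. The old cells are given side by side, without a test.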

Additional observations from a re-analysis of the deposited data

Results flagged for a closer look

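The 9 young cells that the study did not retain, with 6331 to 5046582 counted reads, were in none of the comparisons. Of them, 5 (55.6%, 95% exact Clopper-Pearson interval 21.2 to 86.3) expressed at least 1 of the 6 platelet genes, against 59.6% of the 52 cells used. The intervals overlap.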

How the results depend on the processing

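With 31 cells of 1 mouse on one side and 21 on the other, the precision is set by the number of cells, and a gene expressed in under 10% of them was not compared. The group with platelet genes held 31 cells, but 48 where 1 read was enough. Against 1138 genes higher and 490 lower, the counts were 2060 and 866 among cells without mitotic entry genes, 2025 and 901 with a pseudocount of 0.1 CPM, 2552 and 1704 in the ratio of summed counts, 2444 and 1648 where 1 read was enough, and 1711 higher for at least 2 of the 6 genes against none. In cells within the shared range of genes expressed, chosen after seeing the data, 1177 genes were lower. Higher genes were 69.9% of those past the limit, but 59.2% with poscounts factors, 60% in summed counts, 59.7% at 1 read and 56.8% (909 and 692) at 10 CPM. In these, the cause was not tested.

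Of 240 list medians under alternatives 235 moved by less than a ratio of 1.5. That limit is wider than every main list median, so the count cannot show that a direction held. The lymphoid median rose to 0.02 and the megakaryocyte and platelet median fell to 0.056 under some alternatives. For named genes 429 of 1728 differences moved by at least that ratio, beside 23 that reversed. The erythroid median was 1.28 in summed counts, the S phase median 1.32 at 1 read and -0.34 at 10 CPM, and the G2/M median 1.36 at 1 read and -0.32 within the shared range. For genes detected per cell, the medians differed by 153 between the groups and by 286.5 with all 61 young cells. For the 76 named genes past the limit, 23 of 1216 differences under alternatives took the opposite sign, and for the 32 within it 64 of 512 did. At 1 read these were *Tceanc2* (0.26), *Srf* (0.14), *Itgb1* (0.15), *Prtn3* (-1.95), *Chaf1b* (-0.062), *Ubr7* (-0.18), *Myc* (-1.0), *Oasl2* (-0.16), *Irf1* (0.63) and *Ifi27* (-0.86). In summed counts these were *Fech* (0.51), *Prtn3* (-0.28), *Ctcf* (0.31), *Gbp7* (-0.30) and *Ifih1* (-0.22). Among cells without mitotic entry genes these were *Itgb1* (0.13), *Myc* (-0.84) and *Gbp7* (-0.86), at 10 CPM *Pcna* (-0.33), *Uhrf1* (-0.13) and *Nr4a1* (0.34), without *Tgm2* in the rule *Gbp7* (-0.42), and with groups assigned after reduction to 250000 reads *Ctcf* (0.23). *Cd9*, *Gucy1a3*, *Apoe*, *Ptrf*, *Gstm1*, *Sat1*, *Satb1* and *Flt3* stayed past the limit in the same direction in all 16 alternatives. No paired analysis was possible because the wells carry no replicate number and no test was made.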

Other observations

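The young cells with 3 or 4 of the 6 platelet genes were 5, and all of them expressed *Vwf*, at 3.16 to 9.37 on the log2(CPM + 1) scale. *Cd34*, whose product is absent from the most primitive HSCs of adult mice, was expressed in 3 of the 5 young cells with *Flt3*, in 10 of the other 16 without platelet genes and in 15 of the 31 with platelet genes. *Lax1* was expressed in 2 of the 5 cells with *Flt3*, and *Vwf* in 1 of them, at 8.01.

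Markers of lymphocytes and of endothelial and stromal cells were found in both groups. For B cells, *Cd79b* was the sole marker of 7 in the table and was expressed in 8 of 31 cells with and 4 of 21 cells without platelet genes, at medians of 0.3 CPM (0 to 1108) and 0.199 CPM (0 to 958). Markers of T and NK cells (6 of 9 in the table) summed to a median of 4.52 CPM (0 to 481) and 5.11 CPM (0 to 188), with *Klrb1c* at 0 reads in both groups. Endothelial and stromal markers (8 of 9 in the table) summed to a median of 73.4 CPM (24.5 to 1325) and 75.9 CPM (16.7 to 1046), of which *Lepr*, whose first exons overlap another gene, was expressed in every cell.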
